A study of Arabidopsis thaliana with 12 samples.

Results

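Of 32399 Arabidopsis genes, 10 had a high RNA level in the basal cell of the youngest embryo and in the embryo proper of the later embryo, and almost none in the apical cell or the suspensor. They were chosen by the mean FPKM of the 3 libraries of a group, a level corrected for transcript length and for the size of the library. This mean had to be at least 10 in both basal cell and embryo proper and below 2 in both apical cell and suspensor. The genes are SKU5, F8H, AT4G13710, AT3G07320, AT5G66800, IQD16, CPK27, GSTU25, AT1G14205 and AT4G14103. All 4 group means were used to choose them, so differences between a high and a low group describe the choice and were not tested.

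In Arabidopsis the zygote divides unequally. The small apical cell founds the embryo proper, from which nearly the whole plant arises, and the large basal cell founds the suspensor, a short file of cells that carries and feeds the embryo and whose uppermost cell joins the root tip. The genes described here run across these lineages, since their RNA was high in the basal cell and then in the descendants of its sister. Several of them have a known role or an annotated family tied to the cell wall, and no action on the wall was measured here. The wall is a layer of cellulose, xylan, pectin and callose. Its local stiffening and loosening sets how a plant cell grows and where it divides.

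The study separated the apical cell (AC) from the basal cell (BC) in embryos labelled 2-celled (1-cell stage in the series description). In embryos labelled 32-celled it parted the embryo proper (32E) from the suspensor, called 32S. All plants were labelled Col (Columbia-0 in the study's methods) and grown in a greenhouse under long days, and the labels name no treatment, mutant or transgene. Each group holds 3 independent biological replicates, obtained by manual microdissection and amplified with a SMART-Seq Ultra Low Input RNA kit by the labels (a SMARTer Ultra Low RNA kit by the study's methods), so 12 libraries were compared. A lower level in a dissected sample can reflect fewer cells of a type or less RNA per cell, and these cannot be told apart here.

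Summed FPKM ranged from 833418 to 955228 over the libraries, and 41.0% to 56.4% of genes were listed at 0. The files hold no read counts, and the read totals that the study lists per library were not used here, so no counting error is given. The labelled cell types were compared with 8 apical and 4 basal marker genes. WOX8, a basal marker, had mean FPKM of 350.04 in BC and 428.54 in 32S, against 8.45 in AC, and was listed at 0 in all 32E libraries. WOX9, another basal marker, was at 632.52 in BC and 0.54 in AC, and at 291.82 in 32S and 92.48 in 32E. The basal marker PIN7 had means of 14.11 in BC, 0 in AC, 108.86 in 32S and 2.50 in 32E. For CEP1, also basal, they were 15.73, 4.97, 1229.17 and 0.46 in the same order. The apical markers did not all separate the young cells. HAN (236.66 in AC and 71.69 in BC) and DRN (39.54 and 9.37) were higher in AC. WOX2 (113.22 and 158.44), ATML1 (62.30 and 72.90), PLT1 (1.52 and 24.22) and MP (10.46 and 41.81) had their higher mean in BC. PDF1 (0 and 0.76) and ZPR3 (0 in both) were at or near 0 in the young cells. HAN was listed at 0 in every 32S library. The 9 endosperm markers summed to at most 0.51 in any BC or 32E library, to 2.13 to 6.73 in AC and to 0.18 to 1.64 in 32S. The 12 seed coat markers summed to 23.8 to 46.8 in BC and 32E, against 8.89 to 15.43 in AC and 4.62 to 11.7 in 32S. MUM4 carried most of this in BC, with a mean of 26.14 beside 0.09 for STK. In 32E both did, with means of 22.22 (MUM4) and 17.94 (STK). The mean of MUM4 was 8.05 in AC and 0.01 in 32S.

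The largest stage difference among the 10 genes belonged to SKU5 (AT4G12420), which encodes a membrane-anchored glycoprotein of the cupredoxin family that guides the direction of root growth. SKU5 lies on the minus strand of chromosome 4 (7349187 to 7353135, RefSeq TAIR10.1) and has 10 exons. Its FPKM was 15.7, 14.1 and 18.0 in the BC libraries and 73.6, 62.4 and 71.5 in the 32E libraries. The gene was listed at 0 in all 32S libraries and in 2 AC libraries, with 0.03 in the other AC library. Every 32E library lay above every BC library, with means of 69.2 ± 5.96 (SD, n = 3) and 15.9 ± 1.95. In limma, on the log2(FPKM + 1) scale, SKU5 was 2.05 higher in 32E than in BC (SE 0.18, 4.15-fold on this scale, adjusted p = 2.07e-06).

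F8H (AT5G22940, chromosome 5, 7676662 to 7679200, 3 exons) is the homolog of FRA8 and encodes a glycosyltransferase that helps build glucuronoxylan, a hemicellulose of thickened walls. Its levels were 14.8, 10.7 and 12.5 FPKM in BC and 41.3, 39.2 and 41.9 in 32E. No AC library exceeded 0.36 and no 32S library exceeded 0.26. The 32E and BC values did not overlap, and F8H was 1.62 higher in 32E on the log2(FPKM + 1) scale (SE 0.21, limma adjusted p = 4.63e-05).

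AT4G13710 (chromosome 4, 7962428 to 7966521, 8 exons) is annotated as a protein of the pectin lyase-like superfamily. Enzymes of this superfamily cut or modify pectin, the gel that glues neighbouring cells. The gene reached 14.1, 10.97 and 12.4 FPKM in BC and 39.2, 38.7 and 73.3 in 32E, where 1 library stood well above the other 2. Its AC values were 0.15, 0.06 and 0.36, and its 32S values were 0, 0.74 and 0.11. The rise from BC to 32E was 1.87 on the log2(FPKM + 1) scale (SE 0.30, limma adjusted p = 0.000199), and it was 1.57 without the 32E library of 73.3. When 0.1 rather than 1 was added before the logarithm, limma no longer called AT4G13710 (adjusted p = 0.0327) and F8H (adjusted p = 0.0379), and still called SKU5. The differences of AT4G13710 and F8H were not smaller in that fit, at 1.95 and 1.69. Their SE were larger, at 0.70 and 0.63, in a spread pooled with the values near 0 in AC and 32S.

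The fourth gene grouped here with the wall was AT3G07320 (chromosome 3, 2332004 to 2334185, minus strand, 3 exons). It is annotated as a glycosyl hydrolase of family 17, whose members include enzymes that break down callose. It was measured at 13.5, 10.9 and 8.01 FPKM in BC and at 15.5, 15.3 and 21.6 in 32E. AC libraries gave 0.03, 0 and 0, and 32S libraries 0, 0.89 and 0.32. Each 32E library was above each BC library by a small margin, and the difference of 0.66 (SE 0.27) on the log2(FPKM + 1) scale was not called (limma adjusted p = 0.0537).

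AT5G66800 (chromosome 5, 26671273 to 26672584, 2 exons) had the highest level of the 10 genes. It is annotated as similar to membrane-associated kinase regulators. In BC it reached 122, 106 and 123 FPKM, and in 32E 79.2, 103 and 157, so the 32E libraries spread on either side of the BC libraries. AC libraries gave 0, 0.59 and 0, and 32S libraries 0, 2.05 and 0.42. The means of 117 ± 9.61 in BC and 113 ± 40.2 in 32E (SD, n = 3) differed by less than the spread between replicates (limma adjusted p = 0.846).

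SKU5, AT4G13710, F8H and AT5G66800 were the only genes of the 10 chosen again whichever of the 12 libraries was left out. Their upstream sequences are shown here for that reason, as the 250 bases before the annotated start of each gene in RefSeq TAIR10.1, read 5′ to 3′ along the gene. Capitals mark matches to the motifs searched, which were TATAAA (the TATA box), the CCAAT box, the G-box CACGTG, the RY core CATGCA, the auxin response element TGTCTC, the W-box TTGACC, the TCP site GGCCCA, the telo-box AAACCCTA and the L1 box TAAATGCA. A match on the opposite strand shows as the reverse complement.
SKU5, chr4:7353136-7353385, minus strand: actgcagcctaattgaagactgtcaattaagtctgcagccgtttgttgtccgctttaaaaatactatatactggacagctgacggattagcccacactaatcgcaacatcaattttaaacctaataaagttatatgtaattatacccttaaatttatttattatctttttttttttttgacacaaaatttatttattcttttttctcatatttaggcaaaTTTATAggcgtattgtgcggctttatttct
AT4G13710, chr4:7962178-7962427, plus strand: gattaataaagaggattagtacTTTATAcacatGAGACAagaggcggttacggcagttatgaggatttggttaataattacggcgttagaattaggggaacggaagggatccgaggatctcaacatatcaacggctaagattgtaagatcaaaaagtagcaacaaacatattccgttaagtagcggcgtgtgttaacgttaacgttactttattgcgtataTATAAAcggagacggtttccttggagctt
F8H, chr5:7676412-7676661, plus strand: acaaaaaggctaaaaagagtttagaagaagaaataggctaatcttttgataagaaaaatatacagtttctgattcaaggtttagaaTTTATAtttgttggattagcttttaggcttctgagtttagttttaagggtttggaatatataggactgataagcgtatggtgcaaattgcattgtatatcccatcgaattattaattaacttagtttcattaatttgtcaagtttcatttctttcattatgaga
AT5G66800, chr5:26671023-26671272, plus strand: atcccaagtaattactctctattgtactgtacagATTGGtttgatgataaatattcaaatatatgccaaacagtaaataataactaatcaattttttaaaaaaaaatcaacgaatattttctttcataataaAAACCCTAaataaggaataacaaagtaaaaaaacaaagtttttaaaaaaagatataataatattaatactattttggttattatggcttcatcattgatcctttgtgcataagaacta
In AT4G13710 the letters TATAAA begin at -29 from the start on the gene's own strand, and the SKU5 window has the reverse complement TTTATA from -30. The telo-box of AT5G66800 begins at -118.

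Over the window from 250 bases before to 50 bases after the start, all 10 genes were searched on both strands. TATAAA was found in 8 of them, against 52.6% of the windows of 26711 genes in the files and 49.2% of the 8030 protein-coding genes high in BC and 32E. On the gene's own strand it was found in 5, against 37.6% of all windows. CCAAT occurred in 3 genes, against 51.7% of all windows. The auxin response element (AT4G13710), the W-box (CPK27) and the telo-box (AT5G66800) each occurred in 1 gene, against 14.2%, 14.1% and 6.17%. None of the 10 windows held a G-box, an RY core, a TCP site or an L1 box, which 7.79%, 9.78%, 15.7% and 1.83% of all windows hold. Windows of 10 genes give coarse shares, and a match in letters does not show a bound site.

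**Figure D1:**
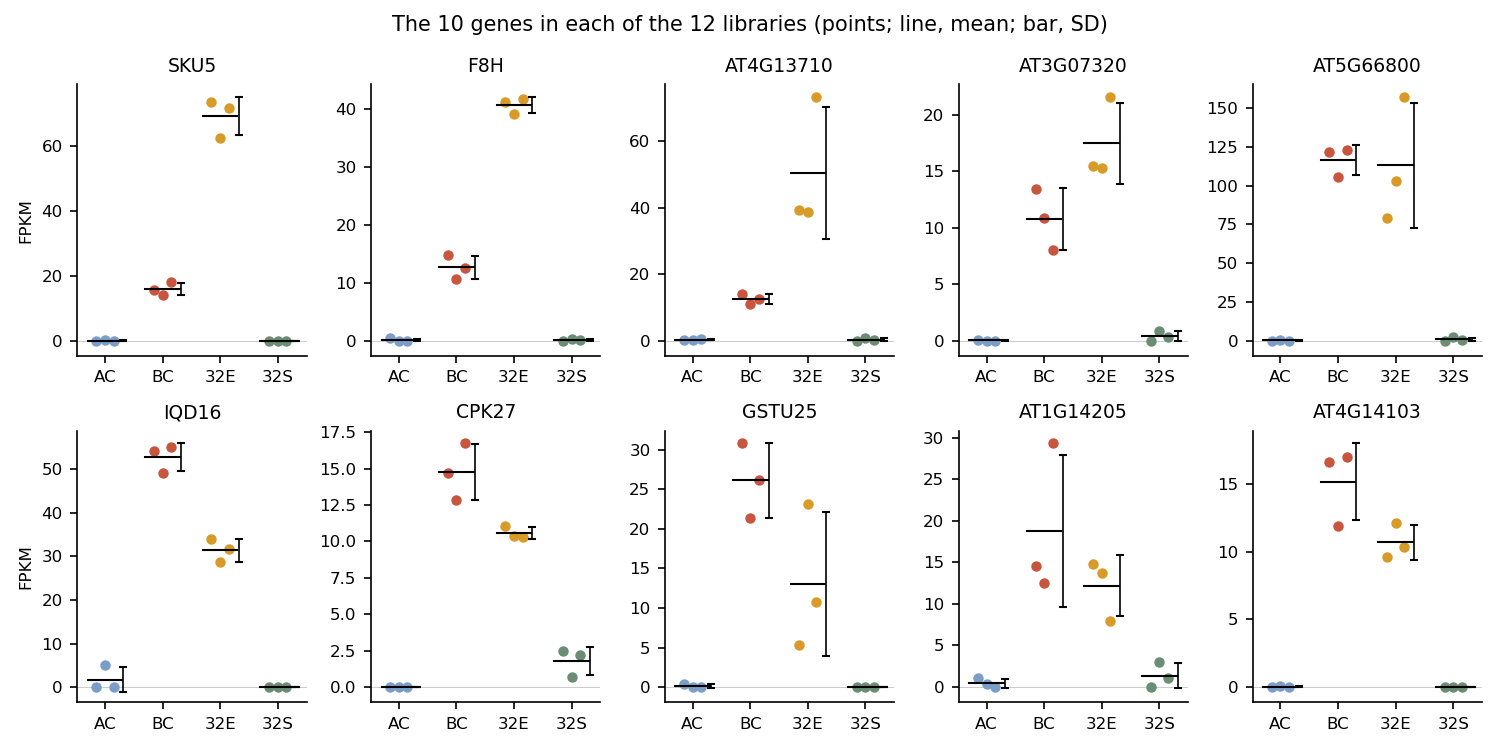
FPKM (y axis, linear) of each of the 10 genes in the 4 groups, with 1 point per library, the mean as a line and the SD as a bar (n = 3). BC and 32E points lie above AC and 32S points in every panel. In the first 4 panels the 32E points also lie above the BC points.

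The remaining genes had their higher mean in BC. IQD16 (AT4G10640, chromosome 4, 6571894 to 6574586, 5 exons) belongs to the IQ-domain proteins, which bind calmodulin, the cell's main calcium sensor, and of which many sit on microtubules. It was at 54.2, 49.3 and 55.1 FPKM in BC and at 34.0, 28.6 and 31.7 in 32E, with no overlap. It was listed at 0 in all 32S libraries and in 2 AC libraries, while the second AC library had 5.10. The 32E level was 0.73 lower on the log2(FPKM + 1) scale (SE 0.55) and was not called (limma adjusted p = 0.263). With only BC and 32E in the model, which leaves out the AC value of 5.10, the adjusted p in limma was 0.000759, but the difference stayed under the size that a call required. IQD16 overlaps the gene AT4G10650 on the other strand by 795 bases. The labels name no stranded kit, so reads in that stretch cannot be told apart, and the mean FPKM of AT4G10650 fell from 21.0 (AC) and 27.7 (BC) at the early stage to 8.24 (32E) and 4.75 (32S).

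CPK27 (AT4G04700, chromosome 4, 2385038 to 2388105, minus strand, 8 exons) is a calcium-dependent protein kinase, a protein that joins a calcium sensor to a kinase. Its levels were 14.7, 12.9 and 16.8 FPKM in BC and 11.03, 10.4 and 10.3 in 32E. Each BC library was above each 32E library, but the difference of -0.44 (SE 0.27) on the log2(FPKM + 1) scale was not called (limma adjusted p = 0.173). CPK27 had the highest mean of the 10 genes in the suspensor, with 2.50, 0.67 and 2.18 FPKM, and was listed at 0 in all AC libraries. It was the only gene of the 10 called between these low groups, 1.41 higher in 32S on the log2(FPKM + 1) scale (SE 0.27, limma adjusted p = 0.000565). Because AC was listed at 0, the size of that difference is set by the pseudocount. With a pseudocount of 5 it was 0.43 and no longer called. CPK27 met the filter for testing only through BC and 32E, where the choice makes it high. Both low means were also held below 2 by the choice, so nothing is read from this call.

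GSTU25 (AT1G17180, chromosome 1, 5872024 to 5873124, 2 exons) is a tau-class glutathione S-transferase, an enzyme of the plant-specific class that couples glutathione to reactive or foreign molecules. BC libraries had 30.8, 21.4 and 26.2 FPKM. The 32E libraries ranged widely, at 5.38, 23.2 and 10.7, and the middle one lay within the BC range. GSTU25 was listed at 0 in all 32S libraries and in all but 1 AC library, which had 0.39. The 32E level was 1.14 lower on the log2(FPKM + 1) scale (SE 0.39) and was not called (limma adjusted p = 0.0242). Leaving out the 32E library of 23.2 made it 1.64 lower and a call (limma adjusted p = 0.000963).

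AT1G14205 (chromosome 1, 4855533 to 4856762, 4 exons) is annotated as a ribosomal protein of the L18p/L5e family. Its BC values were 14.5, 12.6 and 29.3 FPKM and its 32E values 14.8, 13.8 and 7.98, so the groups overlapped. AC libraries gave 1.07, 0.37 and 0, and 32S libraries 0, 3 and 1.12. The difference between 32E and BC was -0.54 (SE 0.50) on the log2(FPKM + 1) scale and was not called (limma adjusted p = 0.371).

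AT4G14103 (chromosome 4, 8126687 to 8128833, 3 exons) encodes an F-box protein, a class that picks targets for a ubiquitin ligase. Its levels were 16.6, 11.9 and 17.0 FPKM in BC and 9.60, 12.1 and 10.4 in 32E, with 1 32E library inside the BC range. It was listed at 0 in every 32S library and at no more than 0.05 in AC. The 32E level differed from BC by -0.46 (SE 0.19) on the log2(FPKM + 1) scale and was not called (limma adjusted p = 0.0570). AT4G14103 overlaps AT4G14104 on the other strand by 126 bases, a gene with a mean of 0 in BC and 1.02 FPKM in 32E.

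In all, limma called 3 of the 10 genes higher in 32E than in BC, where 19.4% of the 17060 genes tested and 7.35% of the 8092 genes high in BC and 32E were called in that direction. None of the 10 was called higher in BC, against 19.5% of the tested genes and 14.9% of those high in BC and 32E. At an unadjusted p under 0.05 there were 6 of 10, against 11297 of 17060. The median difference of the 10 genes was -0.27 on the log2(FPKM + 1) scale, beside 0.00 over all tested genes and -0.16 over the 8092 genes high in BC and 32E. The choice of genes did not fix the sign of this comparison outright. It limited the size, since both means had to be at least 10. The median absolute difference was 0.56 over genes high in BC and 32E against 0.85 over all tested genes. A gene with a BC mean not far above 10 had little room to be lower in 32E. The median BC mean was 15.6 FPKM for the 10 genes, against 43.7 for the genes high in BC and 32E. The 3 genes called higher in 32E had BC means of 15.9 (SKU5), 12.7 (F8H) and 12.5 FPKM (AT4G13710), so the same limit applied to them. Nothing is therefore read from the count of calls higher in 32E or from the absence of calls higher in BC. The p-values rest on a spread between the 3 samples of a group that is pooled over all 4 groups, AC and 32S included. It is also drawn toward the spread of other genes. For IQD16 the SE was 0.55 in this fit and 0.0876 with only BC and 32E in the model.

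Every 32E library lay above every BC library for 4 of the 10 genes, against 34.9% of tested genes. These 4 are SKU5, F8H, AT4G13710 and AT3G07320. They are also the 4 grouped here with the cell wall, AT4G13710 and AT3G07320 by their annotated family only. Every BC library lay above every 32E library for CPK27 and IQD16, against 38.6% of tested genes. The other 4 overlapped. The count of 4 in 10 is near the share over all tested genes, and nothing is read from it. AT3G07320, AT4G13710 and F8H were also the nearest inside the BC threshold, with BC means of 10.8, 12.5 and 12.7 FPKM. There the choice left little room for a lower level in 32E. The grouping by the wall was made after the genes and their values were known, and carries no test.

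**Figure D2:**
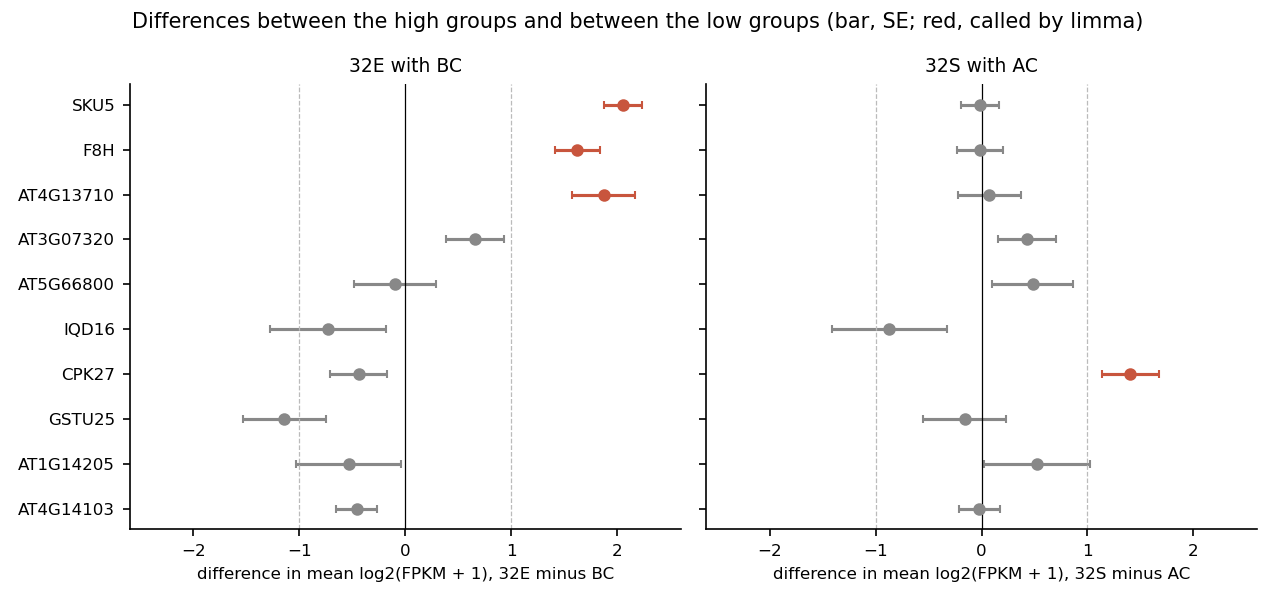
Difference in mean log2(FPKM + 1) (x axis) for the 10 genes, 32E minus BC on the left and 32S minus AC on the right. Points are estimates from limma, bars are SE and red points are calls. SKU5, F8H and AT4G13710 lie to the right of 1 on the left, and CPK27 alone does so on the right.

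Between the low groups, CPK27 was the 1 gene of 10 called higher in 32S, and no gene of the 10 was called higher in AC. Of all tested genes 24.7% were called higher in 32S, but the choice required means below 2 in both groups, which holds a difference on the log2(FPKM + 1) scale under 1.58, so nothing is read from the count. Of the 60 values in AC and 32S, 35 were listed at 0 and 5 were 2 or more. Those 5 were IQD16 in the second AC library, CPK27 in the first and the last 32S library, and AT1G14205 and AT5G66800 in the second 32S library. Of the 60 values in BC and 32E, 4 were below 10. They belonged to AT3G07320 in a BC library and to GSTU25, AT1G14205 and AT4G14103 in a 32E library each. For all 10 genes the lowest BC or 32E library exceeded the highest AC or 32S library, an order that the choice itself favours and that 5.13% of tested genes had.

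The differences that the choice used were 3.50 (AT4G13710) to 6.65 (AT5G66800) for BC minus AC on the log2(FPKM + 1) scale, and 2.13 (CPK27) to 6.13 (SKU5) for 32E minus 32S. These are descriptions. Over the 17060 tested genes, 71 were higher by 2 or more in both of these directions. For comparison, 309 were higher by 2 or more in AC than BC and in 32E than 32S, and 346 in BC than AC and in 32S than 32E, which are the patterns that follow the lineages.

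**Figure D3:**
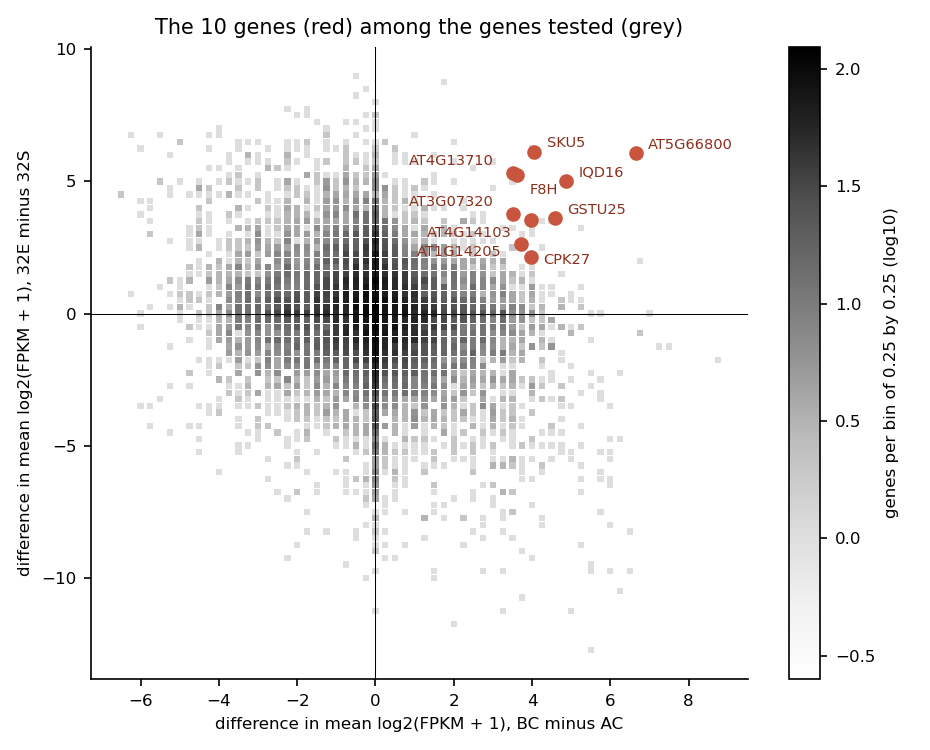
Difference in mean log2(FPKM + 1) of BC minus AC (x axis) and of 32E minus 32S (y axis), for the 10 genes in red and for the 17060 tested genes in grey, shaded by the number of genes in a bin. The 10 genes lie at the upper right because the choice places them there, with AT5G66800 farthest to the right.

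The pattern was the least frequent of the 6 in which exactly 2 groups were at 10 or more and the other 2 below 2. It held 10 genes, against 18 high in AC and 32S, 29 in AC and BC, 51 in AC and 32E, 66 in BC and 32S and 67 in 32E and 32S. Of the 8092 genes at 10 or more in BC and 32E, 71 were below 2 in AC and 278 were below 2 in 32S. Within that set the 10 genes were of low level, with a median BC mean of 15.6 FPKM against 43.7, and a median 32E mean of 24.5 against 36.1.

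Several genes missed the thresholds narrowly. IQD18, an IQ-domain gene like IQD16, was at 11.2, 9.79 and 8.03 FPKM in BC, for a mean of 9.67, and at 27.8, 37.2 and 27.9 in 32E, and was listed at 0 in all 6 AC and 32S libraries. AT5G64950 and MKK9, a MAP kinase kinase, followed with BC means of 9.01 and 8.71. For 32E the nearest were AT5G43530, the expansin-like gene EXLA2 and AT1G60545, with means of 9.27, 8.56 and 6.33. For AC the nearest were AT3G23740, RECQI1 and PRORP2 (3.373, 3.487 and 4.397), and for 32S AT1G15840, the cyclin gene CYCA2;3 and AT3G46950 (2.23, 2.28 and 2.61). Just inside were AT3G07320, AT4G13710 and F8H in BC (10.8, 12.5 and 12.7), CPK27, AT4G14103 and AT1G14205 in 32E (10.6, 10.7 and 12.2), IQD16, AT1G14205 and AT5G66800 in AC (1.70, 0.48 and 0.20), and CPK27, AT1G14205 and AT5G66800 in 32S (1.78, 1.37 and 0.82).

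When the genes were chosen without 1 library, 9 to 12 were found. Their values in the library left out had played no part in that choice, and 104 of 120 such values fell on the same side of the threshold. The share was 27 of 29 values for AC and 28 of 30 for BC, against 25 of 30 for 32E and 24 of 31 for 32S. The library left out is a replicate of libraries that made the choice, and no share over other genes was taken. In the AC and 32S libraries 46.5% to 55.6% of all genes were listed at 0. These counts describe the spread between replicates, and nothing more is read from them. IQD16 was lost without the first or the last AC library, because the value of 5.10 then weighed more. CPK27 was lost without the second 32S library, whereas AT1G15840, CYCA2;3 and AT3G46950 were gained. GSTU25 and AT4G14103 were lost without the second 32E library. Only SKU5, AT4G13710 and F8H were past the thresholds in every single library.

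The suspensor libraries differed in the apical markers that they held. PDF1, a marker of the outer cell layer of the embryo proper, was at 503, 1941 and 897 FPKM in the 3 32S libraries, against 3297 to 4033 in 32E. Over the whole list of 8 apical markers, 13 of 24 values in 32S exceeded 1, the summed level ranged from 588.9 to 2076.29 against 4196.83 to 4866.79 in 32E, and HAN and ZPR3 were listed at 0 in all 32S libraries. In the same order of libraries, WOX2 was at 0, 1.98 and 0.42, AT1G14205 at 0, 3 and 1.12, AT5G66800 at 0, 2.05 and 0.42, AT3G07320 at 0, 0.89 and 0.32, AT4G13710 at 0, 0.74 and 0.11, and F8H at 0, 0.26 and 0.05. For each of these 5 genes the second library was highest and the first was listed at 0. CPK27 took the opposite order, at 2.50, 0.67 and 2.18. SKU5, IQD16, GSTU25 and AT4G14103 were listed at 0 in all 3. The part of the PDF1 signal in these low values was not tested.

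**Figure D4:**
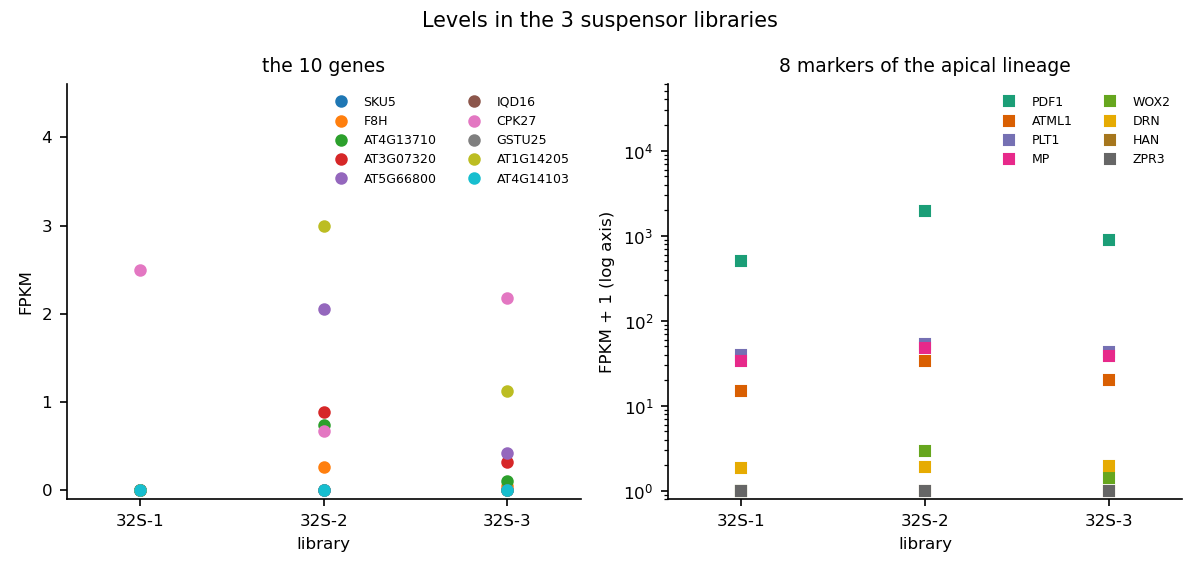
Levels in the 3 32S libraries (x axis) of the 10 genes in FPKM on a linear axis (left) and of 8 apical markers as FPKM + 1 on a log axis (right). Each point is 1 library, and genes listed at 0 overlie each other. The second library has the highest PDF1 and the highest AT1G14205 and AT5G66800, and the lowest CPK27.

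The closest paralog of each gene, by protein sequence, did not share the pattern in any of the 10 cases. Identity ranged from 34.3% (IQD16 with iqd17) to 83.2% (CPK27 with CPK31), so no pair was near-identical. Of the closest paralogs, 5 were below 2 FPKM in all groups. FRA8, the closest relative of F8H at 61.7% identity, was listed at 0 in 11 libraries and at 0.04 in the second 32E library. The closest relatives of AT3G07320 (AT3G23770, 54.2%), AT4G13710 (AT3G24230, 71.5%), AT5G66800 (AT3G50640, 49.4%) and CPK27 (CPK31) had a highest group mean of 1.09 FPKM, that of CPK31 in 32E.

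The other paralogs were present in other patterns. SKS2, at 65.8% identity to SKU5, was lowest where SKU5 peaked, with a mean of 2.04 FPKM in 32E. Its other means were 8.73 (AC), 16.1 (BC) and 27.7 (32S). AT4G14096, the neighbour of AT4G14103 at 151 bases and 80.6% identity, was at 5.61, 0.48, 8.98 and 0.07 in the same order of groups. It was thus close to AT4G14103 in 32E and 32S, but higher in AC (5.61 against 0.0167) and lower in BC (0.48 against 15.2). IQD17 (written iqd17 in the reference) was at 112, 149, 81.0 and 109, and EMB3105, the relative of AT1G14205 at 35.9%, at 49.5, 71.7, 104 and 46.4. GSTU24, next to GSTU25 and 79.0% identical, had 0.90, 6.73, 3.75 and 3.08, and so was highest in BC as GSTU25 was.

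**Figure D5:**
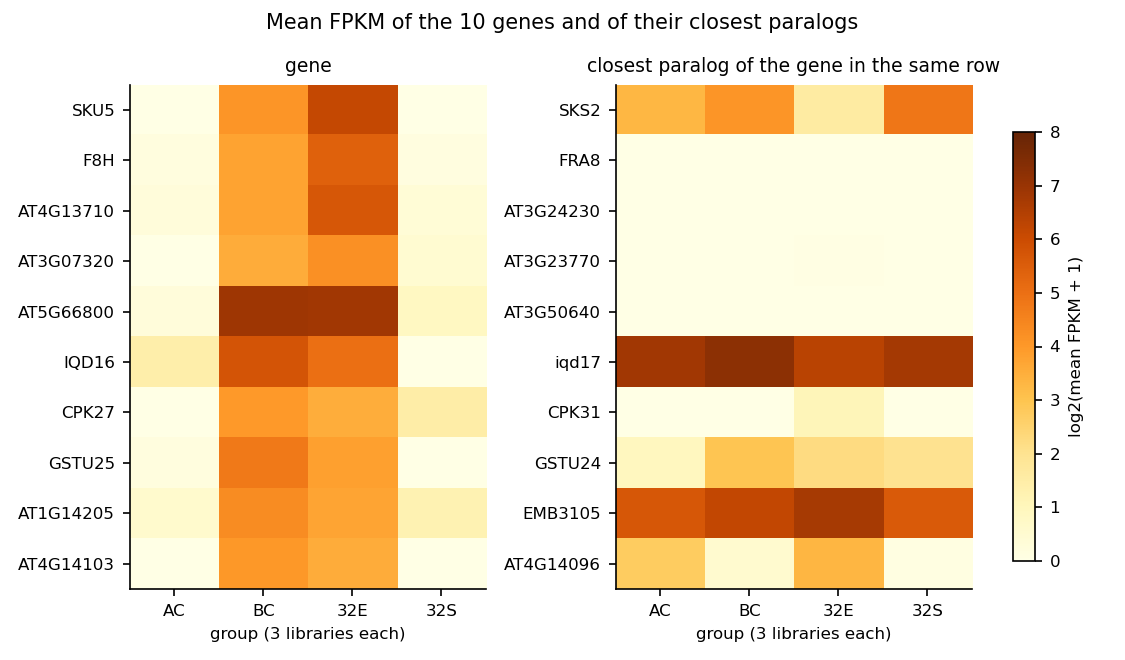
Mean level in each group as log2(mean FPKM + 1) (colour) for the 10 genes (left) and for the closest paralog of the gene in the same row (right). The left panel is dark in BC and 32E by choice, and no row of the right panel repeats it.

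Each larger family, as listed here, held 1 gene of this pattern. Families were taken by symbol or by product name, a rule set after the genes were known. The lists miss some close relatives, among them SKS2 for SKU5 and AT3G24230 for AT4G13710. The calls in each family stand beside 19.4% of all tested genes called higher in 32E and 19.5% called higher in BC, and nothing particular to a family is read from them. Among 33 IQD genes, 25 were tested, and 8 were called higher in 32E and 3 higher in BC, with IQD16 among the 14 not called. Of 20 cupredoxin genes with the annotation of SKU5, 8 were tested, with 3 called higher in 32E and 2 in BC. Of 103 pectin lyase-like genes, 29 were tested, of which 9 were called higher in 32E and 7 in BC, and 75 of the family were below 2 FPKM in all groups. Of 28 genes with the family 17 annotation of AT3G07320, 20 were tested, with 4 and 5 calls in these directions. Among the 28, the gene with the highest mean in BC and 32S was AT3G55430 (252 and 455 FPKM).

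Calcium-dependent kinases gave 2 calls higher in 32E and 5 higher in BC among 19 tested of 29, and 12 of the family were below 2 FPKM in all groups. The kinase genes beside CPK27 on the chromosome, CPK31 and CPK22, had a highest group mean of 1.09 FPKM. Tau glutathione S-transferases gave 6 and 2 calls among 15 tested of 27, and their most abundant gene, GSTU19, was abundant in all groups (429.2 in AC, 248.6 in BC, 572.7 in 32E, 535.6 in 32S). F-box genes with the annotation of AT4G14103 gave 10 and 8 calls among 41 tested of 68. The 9 L18p genes gave 1 call higher in 32E and none in BC.

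Of the 10 genes, 5 lay on chromosome 4, which holds 1232 of the 8092 genes high in BC and 32E. The others were 2 each on chromosomes 1 and 5 and 1 on chromosome 3, with none on chromosome 2. None neighboured another. Of their 20 direct neighbours, 5 were at 10 or more FPKM in BC and 32E. PAP23, a phosphatase gene next to AT4G13710, was at 24.0 and 29.0 FPKM in AC and BC and at 0.53 in 32E. The genes had 2 to 10 exons (median 3.5, against 6 among genes high in BC and 32E) and coding lengths of 510 to 1764 bases (median 1357.5 against 1083). By keywords in the annotation, 4 fell in a class of other enzymes, which leaves out kinases and redox enzymes. The word kinase was carried by 2, and none was a DNA-binding protein or a redox enzyme. These classes made up 13.5% (other enzymes), 4.32% (kinase), 3.89% (DNA-binding) and 4.28% (redox) of the 8030 protein-coding genes high in BC and 32E.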

How the data were processed

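RNA of AC, BC, 32E and 32S was measured in 3 libraries each. The deposited values are FPKM, which the authors computed from fragment numbers by dividing by transcript length and by library size, given with 2 decimals for 32399 genes. The study's methods name Bowtie 2 and RSEM, and the submitters' processing notes name TopHat2 2.1.1, RSEM and the TAIR10 build, so which aligner was used is open. The sources describe no further scaling across libraries. The files hold no counts, and the read totals that the study lists per library were not used here.

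Samples were grouped by their titles. Group means were taken over the 3 libraries, and all 10 genes that met the thresholds were named, with the 3 nearest genes on each side of each threshold, the closest paralogs and the neighbours. The genes and lists were chosen with earlier results of these data known. The values were tested as log2(FPKM + 1) with limma (version 3.58.1, R 4.3.3). All 4 groups entered 1 model, and the prior variance followed the mean level. A gene was tested when 3 or more libraries exceeded an FPKM of 1, which left 17060 genes and all 10 of those described. Calls were made at a p under 0.01, adjusted over all tested genes after Benjamini and Hochberg, with a difference of 1 or more in size. Only 32E with BC and 32S with AC were tested, since the other contrasts chose the genes. The procedure was tested on simulated data for 32E with BC, with noise drawn independently for each gene. On the log2 scale, 62% of differences of 1.5 and 78% of differences of 2 were called. For differences of 3 and of 4 it was 98%, with 1 false call. A gene that was not called may therefore still differ. Proteins were translated from the longest coding sequence of each gene in RefSeq TAIR10.1 and compared with blastp (BLAST+ 2.17.0), with alignments over at least 50% of the protein and copies called near-identical from 95%. Counting and figures used python 3.11.15, numpy 2.4.6, pandas 2.3.3 and matplotlib 3.10.9. Alternatives were other thresholds, group summaries, scalings, pseudocounts, filters and models, the replicate number as a block, and leaving out each library.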

Additional observations from a re-analysis of the deposited data

How the results depend on the processing

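The number of genes chosen was 46 with the high groups at 5 or more, 2 at 20 or more (IQD16 and AT5G66800), 30 with the low groups below 5, 3 with every library past the thresholds, and 9 to 12 with a library left out. It was 7 with the low groups below 1, 12 with medians, 13 in TPM and 9 with median-ratio scaling. Genes of the 10 called higher in 32E than in BC fell to 1 with a pseudocount of 0.1, and genes called higher in BC ranged from 0 to 1 with a library left out. With a pseudocount of 5, 2167 genes of all tested were called higher in 32E, against 3317, and 0 of the 10 were called higher in 32S than in AC.

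Small differences that changed sign were those of AT5G66800 between 32E and BC (0.11 with median-ratio scaling, -0.36 to 0.13 with a library left out), and, between 32S and AC, those of AT4G13710 (-0.0203 with a pseudocount of 0.1, -0.17 to 0.23 with a library left out) and F8H (0.0771 with a pseudocount of 0.1, 0.0134 with median-ratio scaling, -0.11 to 0.13 with a library left out). None of these was called, and the cause was not tested. Median-ratio scaling moved the median difference of all genes between 32E and BC by 0.14. Of 140 refitted values of the 10 genes for each comparison, 135 (32E with BC) and 131 (32S with AC) kept their direction and their side of the threshold.

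Deviations of libraries that share a replicate number from their group means were correlated between -0.13 and 0.07 over 18 pairs, so the numbers were not taken to pair samples. With the replicate block, 3 of the 10 genes were again called higher in 32E and 0 in BC, 1 was called higher in 32S and 0 in AC, and over all tested genes 3258 were called higher in 32E and 3265 in BC. The files hold no counts, so the read number that a value of 0 allows in the low groups is not given.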
